A study of Mus musculus with 4 samples.

Results

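The enzymes that assemble triglyceride were followed in the livers of Fto knockout (KO) and wild-type (WT) mice. They are 10 genes, Mogat1, Gpam, Agpat2, Agpat3, Lpin1, Lpin2, Lpin3, Dgat1, Dgat2 and Pnpla3, taken by their GENCODE M21 symbol from the 37315 gene identifiers of the count tables. Each symbol matched 1 identifier and all 10 passed the filter on low counts. The KO group was 2 libraries labelled Fto knockout and the WT group 2 libraries labelled wild type, all from liver of C57BL/6 mice aged 23 weeks and sequenced as paired reads of 101 bases from polyadenylated RNA. The Fto protein is an enzyme that demethylates RNA. The labels name no allele, no cell type in which Fto was deleted, no sex and no diet. Whether each library stands for its own animal is also not stated, and the p-values below cover the spread among these libraries, part of which may be technical.

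Triglyceride is built by adding fatty acids to a glycerol backbone, and liver cells can do this by a pair of routes that meet at diacylglycerol. In the glycerol phosphate route, glycerol 3-phosphate is acylated by a GPAT enzyme, acylated again by an AGPAT enzyme to give phosphatidate, and stripped of its phosphate by a lipin. In the monoacylglycerol route, a monoacylglycerol that is left over from fat breakdown is acylated directly to diacylglycerol by a MOGAT enzyme. A DGAT enzyme then adds the last fatty acid in either route, and the product is stored in lipid droplets or exported in lipoproteins.

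Of the 10 genes, 1 was called, Mogat1, which was lower in KO liver. In the edgeR quasi-likelihood test with Benjamini-Hochberg adjustment and a threshold of 0.05, 1.91% of the 13836 tested genes were called, 0.961% higher and 0.947% lower in KO. The other 9 genes had adjusted p of 0.163 or more. An unadjusted edgeR p under 0.05 was found for 4 of the 10 and for 13% of all tested genes. A total of 8 of the 10 had a negative log2 fold change, with a median of -0.34 over the 10 against 0.01 over all tested genes. In 8 genes both KO libraries lay below both WT libraries and in 1 gene, Lpin1, both lay above; of all tested genes 42.0% did not overlap, 20.4% with KO below and 21.6% with KO above.

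**Figure D1:**
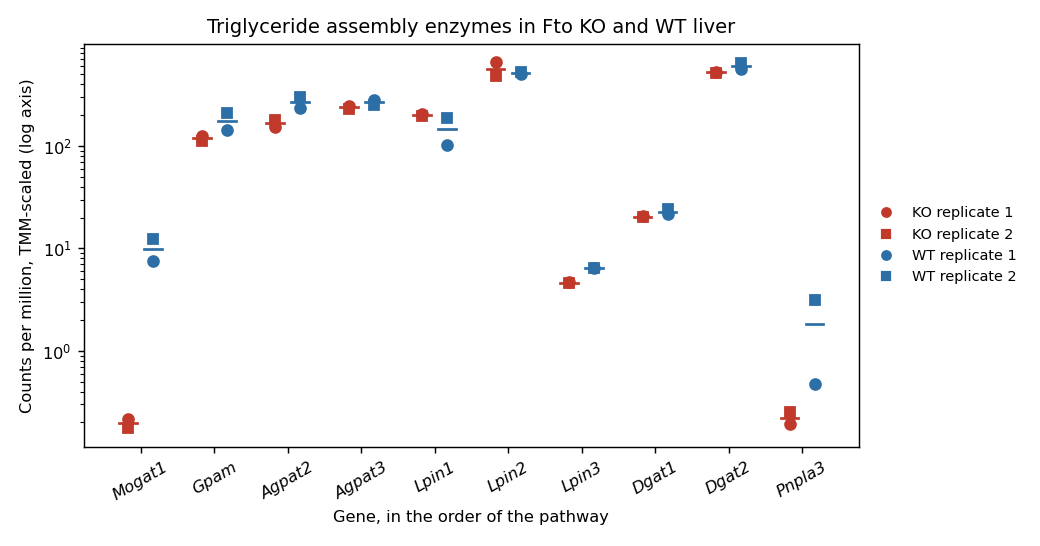
Level of each gene in each library, in counts-per-million (CPM) after TMM scaling, on a log axis; circles are replicate 1, squares replicate 2, and short lines the mean of the 2 libraries of a genotype. The KO libraries of Mogat1 sit at 0.216 and 0.175 CPM, apart from the WT libraries at 7.57 and 12.2 CPM, while Dgat2 and Lpin2 are the most abundant in both genotypes.

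The libraries held between 39549592 and 44689114 counts, so that 1 read was worth between 0.0216 and 0.0263 CPM. Fto itself was at 13.1 and 12.1 CPM in the KO libraries and at 41.2 and 33.9 CPM in the WT libraries (edgeR, log2 fold change -1.57 with SE 0.195 and adjusted p = 0.0109). The hepatocyte markers were abundant in every library (Alb, serum albumin, at 53495 CPM or more), with a summed level of 78770 and 89048 CPM in KO and of 69852 and 80861 CPM in WT. Most of that sum was Alb. Of the 6 markers, 5 had a positive log2 fold change and 1 a negative one. EdgeR called 0, DESeq2 1 and limma-voom 0. Only Cps1 had an unadjusted edgeR p under 0.05, at 5340 and 5095 CPM in KO and 3203 and 3047 CPM in WT (log2 fold change 0.74, SE 0.168, adjusted p = 0.0821, edgeR). Markers of Kupffer cells, which are resident macrophages, lay above WT in both KO libraries for 8 of 8 genes, with sums of 272 and 290 CPM in KO and of 125 and 185 CPM in WT, and edgeR called 2 of the 8. All 8 had an unadjusted edgeR p under 0.05, DESeq2 called 4 and limma-voom 2. The adipocyte markers summed to 11.1 and 12.3 CPM in KO and to 8.73 and 14.1 CPM in WT, and 0 of 6 tested were called. The 8 listed adipocyte genes went different ways between genotypes. Adrb3, the beta-3 adrenergic receptor, had the most reads of the list in both KO libraries, with 479 and 214 reads in KO against 217 and 128 in WT. Cfd, which encodes adipsin, had 20 and 127 reads in KO against 139 and 245 in WT. Adipoq, which encodes adiponectin, had 0 and 71 reads in KO against 1 and 70 in WT, and Lep, which encodes leptin, 0 and 36 in KO against 0 and 41 in WT. Plin1, Retn, Trarg1 and Adig had 22 reads or fewer in every library. In the libraries numbered 1, Adrb3 was most of the adipocyte sum, at 10.4 CPM in KO and 5.12 CPM in WT. Cfd, Adipoq, Lep, Plin1, Retn and Trarg1 had more reads in replicate 2 than in replicate 1 of both genotypes. Adrb3 had fewer in both, and Adig had fewer in KO and more in WT. The markers of stellate, endothelial and bile duct cells had 0 genes called by edgeR and median log2 fold changes of -0.31, 0.05 and 0.08. All 6 stellate markers had a negative log2 fold change. Of the endothelial markers 3 were negative and 3 positive, and of the bile duct markers 2 and 3. At an unadjusted edgeR p under 0.05 there were 1 adipocyte, 2 stellate, 1 endothelial and 0 bile duct markers. The endothelial one was Lyve1, at 1.28 and 1.67 CPM in KO and 3.44 and 4.36 CPM in WT (log2 fold change -1.40, SE 0.293, adjusted p = 0.0623, edgeR). Limma-voom called 0 in these lists, and DESeq2 called 1, an endothelial marker.

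The stretches before the start of the genes at the entry of each route are shown because the comparison turns on them: Mogat1 opens the monoacylglycerol route, and Gpam opens the glycerol phosphate route at mitochondria. Both are from the RefSeq promoter table, build GRCm38.p6, written 5′ to 3′ on the strand of the gene and ended at the first annotated base of the gene in GENCODE M21. The Mogat1 stretch is chr1:78510810-78510990, plus strand, and the Gpam stretch is chr19:55127239-55127488, minus strand. Capitals mark matches to any of 5 motifs searched on both strands.
Mogat1: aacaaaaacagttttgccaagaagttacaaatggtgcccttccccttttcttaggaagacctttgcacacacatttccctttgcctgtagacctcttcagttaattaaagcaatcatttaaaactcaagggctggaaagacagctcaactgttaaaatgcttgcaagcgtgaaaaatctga
Gpam: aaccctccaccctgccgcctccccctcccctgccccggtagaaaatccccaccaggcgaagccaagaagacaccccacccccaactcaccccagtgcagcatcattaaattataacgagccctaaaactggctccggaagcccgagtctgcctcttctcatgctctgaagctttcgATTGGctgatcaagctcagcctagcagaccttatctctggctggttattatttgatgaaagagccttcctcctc
The motifs were the nuclear receptor half-site AGGTCA, the TATA box TATAAA, the CCAAT box CCAAT, the E-box CACGTG and the GC box GGGCGG, which do not overlap one another in these stretches. In the 250 bases before the RefSeq start, Mogat1 held none of them and Gpam held 1 CCAAT box. Over the 32851 such windows of the table, AGGTCA was found in 14.0%, TATAAA in 12.4%, CCAAT in 33.9%, CACGTG in 6.02% and GGGCGG in 32.7%. The Mogat1 window had a GC content of 41.2% with 2 CpG pairs, the Gpam window 54.8% with 7, and the median window 52.4% with 6. Of the 10 genes, 8 had a window in the table.

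Mogat1, a monoacylglycerol acyltransferase found outside the intestine, was at 0.216 and 0.175 CPM in the KO libraries and at 7.57 and 12.2 CPM in the WT libraries. These were 10 and 7 reads in KO and 321 and 466 reads in WT, so the libraries of the genotypes lay far apart. Its log2 fold change in edgeR was -5.63 (SE 0.393, adjusted p = 0.00122), with a 95% interval from -6.54 to -4.72. In the fit KO liver held 2.02% of the WT level. Only 0.0361% of tested genes had a log2 fold change as low or lower. With 1 library left out the log2 fold change of Mogat1 lay between -5.94 and -5.26 and was called each time. The ratio of KO over WT was 0.0286 for replicate 1 and 0.0143 for replicate 2. In bulk liver RNA, fewer cells that express a gene and less of its RNA per cell cannot be told apart. The part of the Kupffer and adipocyte marker values in this result was not tested.

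Mogat1 lies on chromosome 1 from 78510991 to 78538173 on the plus strand (mm10, GENCODE M21). Its tested neighbours were not called with genotype as the only term. Within 500 kb of its start, 3 of 7 other protein-coding genes were expressed enough to test, and edgeR, DESeq2 and limma-voom each called 0. At an unadjusted edgeR p under 0.05 the count was also 0. Farsb, a subunit of phenylalanyl-tRNA synthetase, was at 24.0 and 29.4 CPM in KO and at 25.8 and 29.7 CPM in WT (log2 fold change -0.05, SE 0.196). Acsl3, which activates fatty acids on the endoplasmic reticulum and on lipid droplets, was at 16.9 and 21.9 CPM in KO and at 12.1 and 16.5 CPM in WT (log2 fold change 0.44, SE 0.231, adjusted p = 0.498, edgeR). Utp14b, a retrogene known for its part in mouse sperm formation, had a log2 fold change of -0.22 (SE 0.346). It lies within the span of Acsl3 on the same strand. BC035947, which runs over the start of Mogat1 from the other strand, was too low to test. It had 2 and 4 reads in KO and 12 and 8 in WT, so that, like Mogat1, it was lower in both KO libraries. Without strand information from this kit, reads in such overlaps cannot be assigned to either gene.

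The genes whose pattern over the 4 libraries was nearest to that of Mogat1, by Euclidean distance of centred log2 CPM among protein-coding genes, were Hao2, Cyp2b9, Gprc5b, Cidea and Sptlc3, at distances from 0.594 to 1.31. Hao2 is a peroxisomal hydroxyacid oxidase, Cyp2b9 a cytochrome P450, Cidea a lipid droplet protein and Sptlc3 a subunit of serine palmitoyltransferase. Their log2 fold changes were -6.53, -6.31, -4.49, -6.05 and -5.19 in that order, and all 5 were called, which their likeness to Mogat1 largely sets. In the KO libraries Hao2 had 1 and 2 reads and Sptlc3 had 3 and 2, so depth limits the size of their changes.

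**Figure D2:**
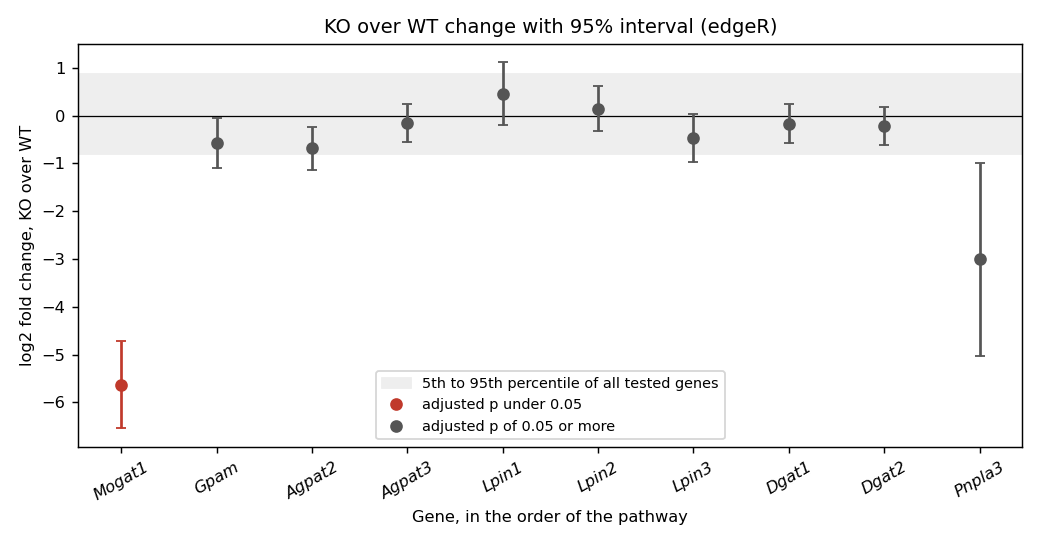
Log2 fold change of KO over WT for each gene with its 95% interval from the edgeR quasi-likelihood fit; the grey band spans the 5th to the 95th percentile of all tested genes, from -0.81 to 0.86. Mogat1 at -5.63 and Pnpla3 at -3.01 lie below the band, Mogat1 alone is called, and the other 8 points lie inside it.

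At the entry of the glycerol phosphate route, Gpam, the mitochondrial glycerol 3-phosphate acyltransferase, was at 126 and 111 CPM in KO and at 142 and 210 CPM in WT. The KO libraries lay below both WT libraries, and the WT libraries differed more from each other than the KO libraries did. Its log2 fold change was -0.57 (SE 0.223, adjusted p = 0.335, edgeR), with a 95% interval from -1.09 to -0.05. Without WT replicate 2 it was -0.27 and without WT replicate 1 it was -0.82. Gpat4, the main acyltransferase of this step in the endoplasmic reticulum, was at 217 and 211 CPM in KO and at 233 and 236 CPM in WT (log2 fold change -0.13, SE 0.165, adjusted p = 0.829, edgeR).

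Gpat3, a less abundant isoform of the endoplasmic reticulum that is prominent in fat cells, was the only called gene among the 7 tested of 8 other route enzymes. It was at 4.39 and 4.57 CPM in KO and at 10.1 and 10.1 CPM in WT. The genotypes did not overlap and each pair of libraries was tight. Gpat3 fell by 1.17 on the log2 scale in KO (SE 0.206, adjusted p = 0.0352, edgeR), a call that was lost when libraries were scaled by their size alone (adjusted p = 0.0585). The median log2 fold change of the 7 genes was -0.13, with 5 negative and 2 positive. An unadjusted edgeR p under 0.05 was found for 2 of them, Gpat3 and Gpat2. Gpat2 was at 1.30 and 1.82 CPM in KO and at 2.64 and 3.02 CPM in WT (log2 fold change -0.86, SE 0.301, adjusted p = 0.268, edgeR). Mogat2, the monoacylglycerol acyltransferase of the intestine, was too low to test, with 9 and 14 reads in KO and 5 and 6 in WT.

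The second acylation turns lysophosphatidate into phosphatidate. Agpat2, whose loss causes lipodystrophy in mice and people, was at 155 and 179 CPM in KO and at 237 and 300.3 CPM in WT. Both KO libraries lay below both WT libraries. In edgeR it had -0.69 as log2 fold change (SE 0.195, adjusted p = 0.163), with a 95% interval from -1.14 to -0.23. Agpat2 was called when no filter on low counts was used (adjusted p = 0.0318), and over the alternatives other than the term for replicate number its adjusted p lay between 0.0318 and 0.535. Agpat2 overlaps Egfl7, an endothelial gene on the opposite strand with 594 to 843 reads per library. Agpat3, an isoform of the endoplasmic reticulum and the Golgi, was at 246 and 232 CPM in KO and at 279 and 253 CPM in WT (log2 fold change -0.16, SE 0.169, 95% interval from -0.55 to 0.24). Lclat1 and Agpat1, further acyltransferases of this kind, had log2 fold changes of -0.25 and -0.13 and were not called.

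The lipins remove phosphate from phosphatidate, and Lpin1 also acts as a coactivator of transcription in the nucleus. Lpin1 was at 204 and 196 CPM in KO and at 101 and 190 CPM in WT. Both KO libraries lay above both WT libraries, but WT replicate 2 was close to KO and WT replicate 1 was far below it. The log2 fold change was 0.46 (SE 0.282, adjusted p = 0.574, edgeR), with a 95% interval from -0.19 to 1.12. The ratio of KO over WT was 2.01 for replicate 1 and 1.04 for replicate 2. Without WT replicate 2 the log2 fold change was 0.97 and was called (adjusted p = 0.0326), and without WT replicate 1 it was 0.08 (adjusted p = 0.947).

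Lpin2, the most abundant lipin of these livers, was at 657 and 481 CPM in KO and at 502 and 524 CPM in WT. The KO libraries enclosed the WT libraries. For Lpin2 the log2 fold change was 0.15 (SE 0.200, adjusted p = 0.85, edgeR), and it was -0.09 without KO replicate 1. Lpin3, the least abundant, was at 4.65 and 4.62 CPM in KO and at 6.39 and 6.38 CPM in WT. Libraries of a genotype nearly coincided and the genotypes did not overlap, but the test across all genes did not call it (log2 fold change -0.46, SE 0.215, adjusted p = 0.427, edgeR), with a 95% interval from -0.96 to 0.04. Of 3 lipin partners, 0 were called by edgeR, by DESeq2 or by limma-voom, with 1 at an unadjusted edgeR p under 0.05. These were the phosphatase Ctdnep1 with its subunit Cnep1r1, which act on lipins, and Bscl2, which encodes seipin. Bscl2 was at 43.6 and 43.8 CPM in KO and at 55.3 and 66.2 CPM in WT (log2 fold change -0.48, SE 0.183, adjusted p = 0.323, edgeR). The log2 fold changes of Cnep1r1 and Ctdnep1 were -0.53 and 0.09.

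The last fatty acid is added by Dgat1 or Dgat2, which belong to unrelated enzyme families and serve both routes. Dgat2 was at 532 and 514 CPM in KO and at 569 and 650.4 CPM in WT. Its log2 fold change of -0.22 (SE 0.171, adjusted p = 0.679, edgeR) had a 95% interval from -0.62 to 0.18. Dgat1 was at 20.5 and 20.2 CPM in KO and at 21.6 and 24.1 CPM in WT. Its log2 fold change of -0.17 (SE 0.179, adjusted p = 0.791, edgeR) had a 95% interval from -0.58 to 0.25. In both genes the KO libraries lay below the WT libraries, by a gap smaller than the distance between the WT libraries.

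Pnpla3 encodes a lipid droplet protein for which lipase and acyltransferase activities have been described, and it is induced by feeding in mouse liver. It was at 0.195 and 0.250 CPM in KO and at 0.472 and 3.15 CPM in WT, from 9 and 10 reads in KO and 20 and 120 reads in WT. The KO libraries were alike and lay below both WT libraries, which differed widely. In edgeR its log2 fold change was -3.01 (SE 0.868, adjusted p = 0.169, edgeR), with a 95% interval from -5.03 to -0.99. The size rests on WT replicate 2: without it the log2 fold change was -1.09 (adjusted p = 0.837), and without WT replicate 1 it was -3.82. DESeq2 called Pnpla3 (adjusted p = 0.00374), as did edgeR without a filter on low counts (5.78e-07), while limma-voom did not (0.41). The part of the adipocyte and Kupffer marker values in this difference was not tested.

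**Figure D3:**
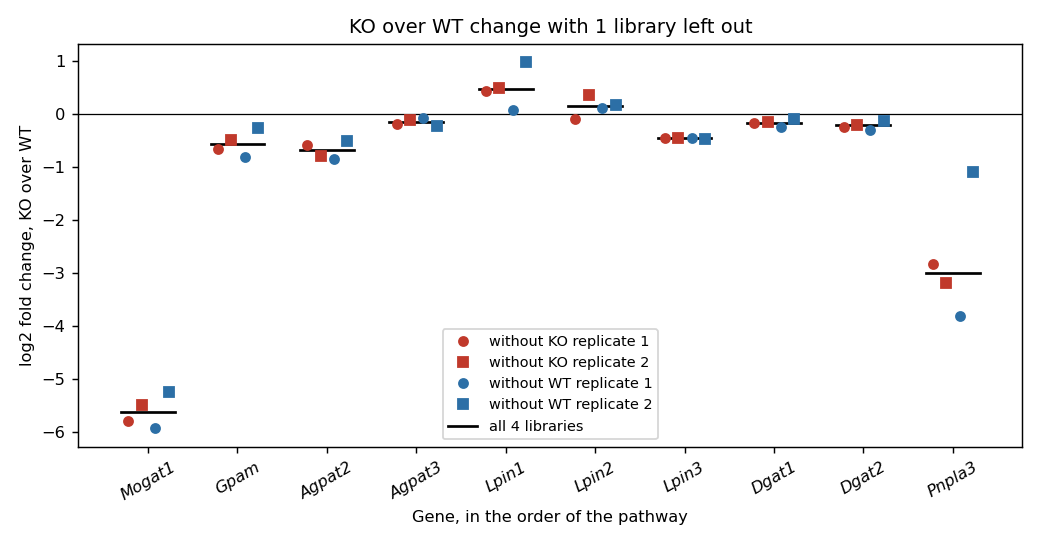
Log2 fold change of KO over WT for each gene with all 4 libraries (black line) and with 1 library left out (red circles and squares, KO replicate 1 and 2 left out; blue circles and squares, WT replicate 1 and 2 left out). Lpin1 runs from 0.08 to 0.97 and Pnpla3 from -3.82 to -1.09, according to the WT library kept, while Mogat1 stays between -5.94 and -5.26.

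Within each genotype, most of the 10 genes differed in the same direction between replicates, and this direction was opposite in KO and WT. In KO, replicate 2 was below replicate 1 for 8 of the 10 genes, and in WT, replicate 2 was above replicate 1 for 8 of the 10. The KO level was below the WT level for 8 genes in replicate 1 and for 9 in replicate 2. With 1 KO and 1 WT library per number, these ratios carry no test. Some of the differences counted were small, as for Dgat1 at 20.5 and 20.2 CPM in KO. The same counts were not made over all tested genes, so they describe these 10 genes only. Over 12757 tested protein-coding genes, the deviations of replicate 1 from its group mean correlated between KO and WT with r = 0.435. There, the replicates of KO and WT tended to differ in the same direction.

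Levels of different genes were compared per length, as CPM per kilobase of joined exons (RPKM). The level of Mogat1 was set against the summed level of 6 other members, Gpam, Agpat2, Agpat3, Lpin1, Lpin2 and Lpin3, a sum that does not contain it. As a ratio to that sum, Mogat1 stood at 0.0697% and 0.0586% in KO and at 2.19% and 2.92% in WT. On the log2 scale this ratio averaged -10.6 ± 0.177 in KO and -5.30 ± 0.292 in WT (SD, n = 2 each; difference -5.31, exact two-sided permutation p = 0.333, the smallest that 2 against 2 libraries allow). The groups were separated by far more than the spread within either. Mogat1 is the numerator of the ratio and its own log2 fold change was -5.63, so the ratio is not evidence separate from its call. The difference in this ratio was -5.40 per coding length and -5.33 with all 13 tested genes of the route.

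Among the enzymes of entry, the 4 GPAT and the 2 MOGAT genes, Mogat1 held 0.260% and 0.222% of the summed RPKM in KO and 7.46% and 9.97% in WT. With coding length in place of exon length, its difference between KO and WT of -8.47 percentage points became -3.63. Gpat4 held 60.8% and 62.4% of the entry step in KO and 53.7% and 44.8% in WT. Gpam held 35.4% and 33.1% in KO and 32.8% and 40.0% in WT, and these overlapped.

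In the second acylation, Agpat2 held 60.9% and 67.3% of the summed RPKM in KO and 67.9% and 75.4% in WT, and Agpat3 26.5% and 23.8% in KO and 21.9% and 17.4% in WT. For both genes the groups lay side by side without overlap, with gaps that were smaller than the spread within either genotype. Among the lipins, Lpin2 held 70.6% and 64.6% in KO and 77.0% and 66.7% in WT, and Lpin1 27.8% and 33.4% in KO and 19.7% and 30.6% in WT, with overlap. Dgat2 held 96.3% and 96.2% of the last acylation in KO and 96.3% and 96.4% in WT, so that the balance of the DGAT genes differed by 0.133 percentage points between the genotypes. With 2 libraries per genotype no share could reach an exact permutation p below 0.333.

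**Figure D4:**
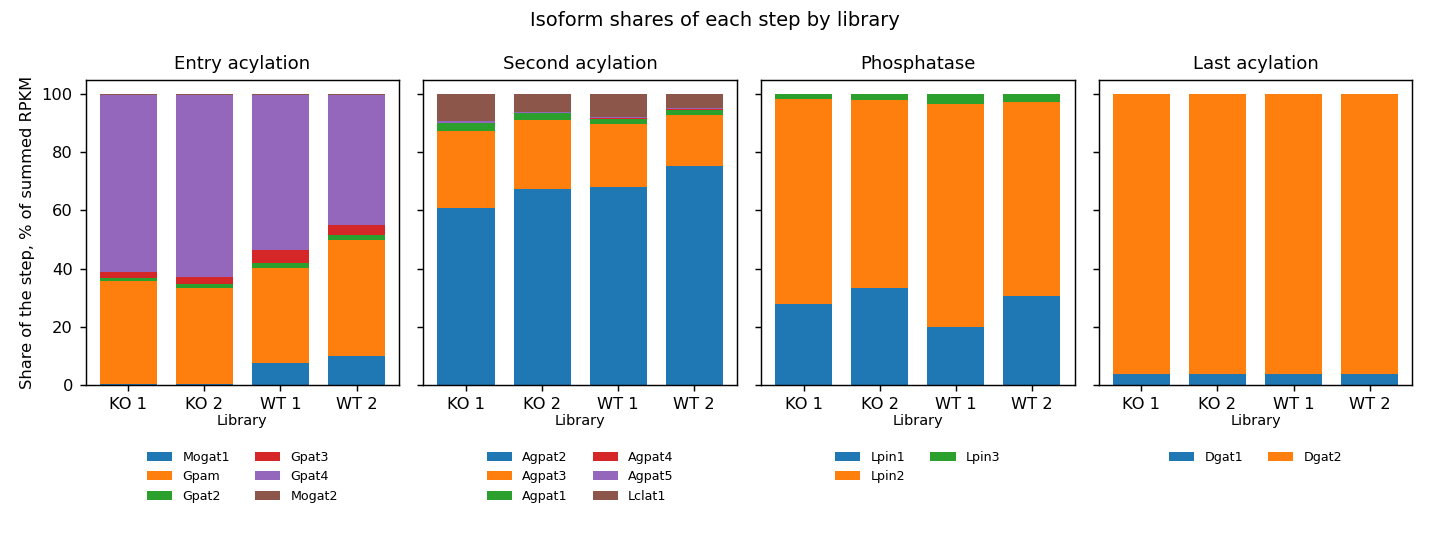
Share of each gene in the summed RPKM of its step, in percent, for each library, KO left of WT. Mogat1 (blue in the first panel) takes 7.46% and 9.97% of the entry step in the WT libraries and is too thin to see in KO, while Dgat2 takes over 96% of the last step in all 4 libraries.

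The summed RPKM of a step gives the RNA level of its genes together, not the activity of the step. Each sum is weighted towards its most abundant genes, such as Agpat2 in the second acylation and Dgat2 in the last. Second acylation summed to 119 and 125 RPKM in KO and to 163 and 187 RPKM in WT. The last acylation summed to 179 and 174 RPKM in KO and to 192 and 219 RPKM in WT. The GPAT genes summed to 53.2 and 50.3 RPKM in KO and to 60.2 and 70.9 RPKM in WT. These 3 sums were lower in both KO libraries, while the lipins overlapped, at 76.1 and 60.9 RPKM in KO and 53.3 and 64.2 RPKM in WT.

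Genes that feed or drain the pathway were taken as fixed lists. Of 8 genes that supply glycerol 3-phosphate, 6 were tested and 0 were called by edgeR, with a median log2 fold change of -0.21 and 1 unadjusted p under 0.05. That gene was Gpd1, the cytosolic dehydrogenase that makes glycerol 3-phosphate, at 337 and 375 CPM in KO and at 613 and 669 CPM in WT. Its log2 fold change of -0.85 (SE 0.172, adjusted p = 0.0580, edgeR) was called by DESeq2 (adjusted p = 0.00353) but not by limma-voom, so the list had 1 called gene by DESeq2 and 0 by limma-voom. Pck1, of gluconeogenesis and glyceroneogenesis, and Aqp9, the glycerol channel of liver, had log2 fold changes of -0.01 and -0.24.

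A list of 25 genes covered other routes for phosphatidate and diacylglycerol, mainly phospholipid synthesis. Not all of their enzymes act on these lipids themselves. Of the 25, 22 were tested and 0 were called by edgeR. There were 2 unadjusted p under 0.05, and the median log2 fold change was 0.07. The genes with these 2 p-values were Chpt1 and Chka, which went opposite ways. Chka was at 25.8 and 22.1 CPM in KO and at 19.4 and 11.5 CPM in WT (log2 fold change 0.63, SE 0.266, adjusted p = 0.368, edgeR). DESeq2 called 1 and limma-voom 0. The one called by DESeq2, singled out after its values were seen, was Chpt1, which makes phosphatidylcholine from diacylglycerol. It was at 159 and 163 CPM in KO and at 258 and 279 CPM in WT (log2 fold change -0.74, SE 0.168, adjusted p = 0.0815, edgeR; 0.0149, DESeq2). The abundant Pcyt2, Etnk2 and Plpp3, the first and second of phosphatidylethanolamine synthesis and the third a phosphatase of lipid phosphates, had log2 fold changes of 0.15, -0.01 and -0.03.

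The formation and removal of monoacylglycerol, the substrate of Mogat1, was covered by a list of 8 genes. Of these, 0 were called by edgeR, DESeq2 or limma-voom, with 1 unadjusted p under 0.05 and a median log2 fold change of -0.12. Mgll, the lipase that breaks monoacylglycerol down, was at 223 and 253 CPM in KO and at 358 and 365 CPM in WT (log2 fold change -0.60, SE 0.171, adjusted p = 0.163, edgeR). Pnpla2, the adipose triglyceride lipase, acts a step before monoacylglycerol is formed, and Abhd6 is a further monoacylglycerol lipase. Pnpla2 and Abhd6 had log2 fold changes of 0.07 and -0.34.

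Of 8 regulators, 1 was called, Pparg, a nuclear receptor of fat storage under which Mogat1 is known to be induced in fatty mouse liver. Pparg was at 7.77 and 7.32 CPM in KO and at 15.4 and 22.1 CPM in WT. The genotypes did not overlap, and the WT libraries were spread. Pparg fell by 1.31 on the log2 scale (SE 0.231, adjusted p = 0.0352, edgeR), a call that was lost with scaling by library size (adjusted p = 0.0607). The median over the 8 regulators was -0.03, with 4 negative and 4 positive. An unadjusted edgeR p under 0.05 was found for 2 of them, Pparg and Ppargc1a. Ppargc1a was at 4.97 and 6.05 CPM in KO and at 8.30 and 9.54 CPM in WT (log2 fold change -0.69, SE 0.222, adjusted p = 0.219, edgeR). Ppara, Mlxipl (ChREBP) and Cebpa had log2 fold changes of 0.29, 0.03 and 0.16 and were not called.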

How the data were processed

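The deposited files hold 1 whole-number read count per Ensembl gene for each of the 4 libraries. The submitters' processing notes name the build mm10, TopHat2 2.1.1 and HTSeq 0.6.0. Annotation release and counting options: not given in the sources used here. RNA was polyadenylated and the libraries were made with a kit that does not mark strand, per the labels' protocols. GENCODE M21 gave symbols and positions for 35533 of 37315 identifiers.

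From the deposited counts, KO was compared with WT with edgeR 4.0.16 in R 4.3.3: filterByExpr (minimum count 10, minimum total 15; 13836 genes), TMM, robust dispersion, quasi-likelihood F test, two-sided, genotype as the only term, Benjamini-Hochberg adjustment over all tested genes. SE is the size of the log2 fold change over the square root of F, and 95% intervals use the degrees of freedom of that fit. CPM is TMM-scaled; RPKM divides it by joined exon length. All pairs of libraries differed by more than sampling noise (chi-square per degree of freedom of 86.5 or more). Alternatives were DESeq2 1.42.0, limma-voom (limma 3.58.1), other scalings and filters, a term for replicate number and leaving out each library. The procedure was tested on simulated data. The 10 genes and the lists were chosen with earlier results of these data known. Named pathway genes are those called and the 3 others of each list with the highest mean CPM. Gpat2, Ppargc1a and Chka are named for an unadjusted edgeR p under 0.05, and their fold changes were not followed under the alternatives. The 5 genes nearest to Mogat1 and the tested genes within 500 kb of it are also named.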

Additional observations from a re-analysis of the deposited data

How the results depend on the processing

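Mogat1 and Fto kept their direction and their call under all alternatives run. The count of called genes was 264, and it was 574 with DESeq2, 829 without a filter on low counts, 176 with library size alone and between 460 and 633 with 1 library left out. The term for replicate number (replicate block) gave 2729, but equal numbers are not said to pair animals; the deviations of the libraries numbered 1 from their group means correlated with r = 0.435 between genotypes, across 12757 genes. Of the 10 enzymes 1 was called, 2 with DESeq2, 3 without a filter, 3 with the replicate block and 2 with any 1 library left out (2 to 2). The block added Agpat2 (adjusted p = 8.08e-06) and Pnpla3 (0.0011). Outside the 10 enzymes, the block also called Acsl3, a neighbour of Mogat1 (log2 fold change 0.45, adjusted p = 0.0113). Called genes of the lists moved as follows: glycerol 3-phosphate supply, 0 to 1 with DESeq2, 1 without a filter, 2 with the block and 0 to 1 without 1 library; phosphatidate and diacylglycerol use, 1, 1, 4 and 0 to 1; lipin partners 2, monoacylglycerol genes 1, other route enzymes 2 and regulators 3 with the block; and both other route enzymes and regulators 0 with library size alone. With library size alone Pck1 had a log2 fold change of 0.0074 and Etnk2 of 0.013, opposite in sign. With 1 library left out, these uncalled genes changed sign: Lpin2 (-0.091 to 0.35), Agpat1 (-0.29 to 0.044), Lclat1 (-0.54 to 0.021), Ctdnep1 (-0.067 to 0.23), Etnk2 (-0.16 to 0.16), Farsb (-0.21 to 0.087), Mlxipl (-0.083 to 0.15), Pck1 (-0.11 to 0.075), Pcyt2 (-0.044 to 0.36), Plpp3 (-0.095 to 0.033), Pnpla2 (-0.24 to 0.31), Ppara (-0.0088 to 0.64) and Utp14b (-0.57 to 0.23). The Mogat1 ratio kept its direction with coding length, with no length and without any 1 library. So did the 5 isoform shares recomputed (Mogat1, Gpam, Agpat2, Lpin1 and Dgat2), but the shares moved in size. For Gpam this was its share among the 4 GPAT genes alone, at 35.6% and 33.3% in KO and 35.5% and 44.5% in WT. The Gpam share of the entry step was not recomputed. There both KO libraries (35.4% and 33.1%) lay above WT replicate 1 (32.8%) and below WT replicate 2 (40.0%). In percentage points of KO minus WT, with 1 library left out, Lpin1 ran from 0.033 (without WT replicate 1) to 10.9 (without WT replicate 2) around 5.45, Gpam from -10.04 (without WT replicate 1) to -1.07 (without WT replicate 2) around -5.55, and Agpat2 from -11.3 to -3.83 around -7.56. The cause of these shifts was not tested. Depth limits Mogat1 and Pnpla3, with 7 to 10 reads per KO library, and also Hao2 and Sptlc3, with 1 to 3.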
